A study of Homo sapiens with 18 samples.

Results

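The genes described here are 9 laminin chains and basement membrane proteins: the laminin alpha chains LAMA5 and LAMA3, the beta chains LAMB1, LAMB2 and LAMB3, the gamma chain LAMC1, the collagen COL18A1, and the proteoglycans AGRN and HSPG2. They were taken by gene symbol from the 60683 gene rows of each of 2 count tables, and all 9 were found in both. RNA was poly(A)-enriched and sequenced from HCT-116, an established human colorectal carcinoma cell line, in 18 libraries that form 6 groups of 3.

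The first table holds ACTB-mut, ACTB-WT and Actin KO. All 3 of these groups carry an actin knockout. ACTB-mut cells stably express the H73A form of actin, ACTB-WT cells express wild-type actin, and Actin KO cells carry an empty construct, per the series design. The second table holds SETD3_KO2 and SETD3_KO1, a pair of SETD3 knockout lines, and SETD3_CT, their control. SETD3 is the enzyme that methylates the actin histidine which H73A replaces, so the design asks how gene expression depends on that histidine and on its methyltransferase. The sources used here do not say whether a line is a single clone or whether replicates came from separate cultures, so p-values rest on a spread between libraries that may be technical. 1 library, SETD3_KO2 replicate 3, has the cell line label HCT-117 and was kept in its group.

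Basement membranes are thin sheets of matrix under epithelia. Their first layer is built from laminins, cross-shaped trimers of an alpha, a beta and a gamma chain, which bind cells through integrins and dystroglycan at the end of the alpha chain. The alpha chain is rate-limiting for secretion of the trimer, and the alpha5 chain, encoded by LAMA5, is the main alpha chain under adult epithelia, the colon included. Heparan sulfate proteoglycans such as perlecan (HSPG2), agrin (AGRN) and collagen XVIII (COL18A1) tie the laminin layer to the collagen IV network.

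Total counts ran from 3389502 to 11652897 per library, with SETD3_KO2 replicate 1 the shallowest. Mitochondrial transcripts held 0.64% to 1.70% of counts. Levels are given as CPM, counts per 1000000 counts of a library after TMM scaling, and levels of different genes are compared only as CPM per kb of transcript. ACTB stood at 47.1, 32.0 and 43.0 CPM in ACTB-mut, 31.0, 29.2 and 23.2 CPM in ACTB-WT and 16.7, 24.9 and 15.0 CPM in Actin KO. The 9 SETD3 libraries had 662 to 1456 CPM of it. SETD3 stood at 15.6, 22.3 and 27.7 CPM in SETD3_KO2, 6.81, 6.34 and 17.1 CPM in SETD3_KO1 and 15.5, 14.0 and 36.0 CPM in SETD3_CT. For ACTB, all 3 ACTB-mut libraries lay above the Actin KO libraries, while ACTB-WT overlapped Actin KO, and all 9 libraries of the actin table lay below the 9 of the separately scaled SETD3 table. SETD3 RNA in each knockout line overlapped that in SETD3_CT, so every group below is the set of libraries labelled with that name. The 10 colorectal epithelium markers summed to 8149 to 13678 CPM per library, with CDX1 at 0 and VIL1 at no more than 0.15 CPM. The 10 fibroblast markers summed to 2.39 to 19.9 CPM, with COL1A1 reaching the highest level, at 0 to 15.3 CPM. Among them COL3A1, DCN, LUM, FAP and POSTN were at 0 in all 18 libraries. The 7 endothelium markers summed to at most 2.23 CPM. The 7 blood markers summed to 0.13 to 14.3 CPM, with LYZ at up to 14.3 CPM. The 7 muscle and nerve markers summed to 63.6 to 147 CPM, most of it from TUBB3, at 56.6 to 145 CPM.

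The promoter windows of 4 members are shown because LAMA5 and COL18A1 carry the changes described below, while LAMB1 and LAMC1 encode the beta and gamma chains that the alpha5 chain joins in a trimer and did not pass a test in any comparison. Each window runs from 250 bases before to 50 bases after the RefSeq start of the gene (GRCh38.p14), 5′ to 3′ on the gene's own strand. Capitals mark GC boxes, the letters GGGCGG read on either strand, where overlapping matches run together.
LAMA5, chr20:62367263-62367562, minus strand: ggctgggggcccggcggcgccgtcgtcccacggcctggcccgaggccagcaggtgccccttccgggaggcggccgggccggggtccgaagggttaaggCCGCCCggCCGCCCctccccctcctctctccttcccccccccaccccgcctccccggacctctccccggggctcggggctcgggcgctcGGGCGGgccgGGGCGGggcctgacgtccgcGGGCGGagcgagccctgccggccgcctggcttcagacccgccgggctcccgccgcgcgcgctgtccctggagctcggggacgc
COL18A1, chr21:45404915-45405214, plus strand, window 1 of 2: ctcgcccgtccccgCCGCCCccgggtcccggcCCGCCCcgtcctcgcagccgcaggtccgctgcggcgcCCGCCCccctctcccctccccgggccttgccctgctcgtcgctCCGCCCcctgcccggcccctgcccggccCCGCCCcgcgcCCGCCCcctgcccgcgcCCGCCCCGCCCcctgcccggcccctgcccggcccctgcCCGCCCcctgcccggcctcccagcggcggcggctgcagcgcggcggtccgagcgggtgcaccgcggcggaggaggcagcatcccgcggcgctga
LAMB1, chr7:108003112-108003411, minus strand: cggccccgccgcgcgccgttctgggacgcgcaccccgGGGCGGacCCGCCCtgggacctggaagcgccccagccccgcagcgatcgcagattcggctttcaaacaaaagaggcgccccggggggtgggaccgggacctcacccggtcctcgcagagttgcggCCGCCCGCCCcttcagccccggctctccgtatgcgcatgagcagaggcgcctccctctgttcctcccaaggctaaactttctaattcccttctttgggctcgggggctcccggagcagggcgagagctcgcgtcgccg
LAMC1, chr1:183023170-183023469, plus strand: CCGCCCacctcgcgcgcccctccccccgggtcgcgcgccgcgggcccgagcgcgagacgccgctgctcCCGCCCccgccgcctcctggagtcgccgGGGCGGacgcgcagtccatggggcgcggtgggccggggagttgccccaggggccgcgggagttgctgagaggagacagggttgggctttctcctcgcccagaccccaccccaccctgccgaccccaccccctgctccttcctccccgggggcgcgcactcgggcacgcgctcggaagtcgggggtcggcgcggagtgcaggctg

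The 4 windows held 5, 9, 4 and 3 GC boxes at a GC content of 82.7%, 86.7%, 71.0% and 79.0%. Among 35116 RefSeq windows of the same length, 45.0% held a GC box and the median GC content was 58.7%. GC boxes thus stood in the windows of genes that passed a test and of genes that did not. Windows were found for 8 of the 9 members, all but AGRN. The AP-1 motif TGANTCA, present in 7.71% of all windows, was found 2 times in the window of LAMA3 and 1 time in window 3 of LAMB3, and in no other member's window. The LAMA3 window, chr18:23872770-23873069, lies inside the gene, downstream of its annotated start at 23689443. The sequence at that start was not searched. The E-box CACGTG (7.26% of all windows), the TEAD motif GGAATG (14.0%) and the CArG box (1.29%), the motif of the actin-responsive factor SRF, were in none of the members' windows. Both strands were searched for each motif, and no match of one motif overlapped a match of another. Overlapping GC boxes were counted singly, with 1 such pair each in the windows shown for COL18A1 and LAMB1.

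In ACTB-mut, LAMA5 RNA was lower than in both other actin groups and COL18A1 RNA was lower than in ACTB-WT. LAMA5 fell to 3.60 ± 1.32 CPM in ACTB-mut, against 16.4 ± 3.56 CPM in ACTB-WT and 16.9 ± 6.05 CPM in Actin KO (mean ± SD, n = 3 libraries each). COL18A1 fell to 11.3 ± 1.87 CPM in ACTB-mut, against 31.0 ± 12.2 CPM in ACTB-WT. In these bulk libraries, fewer cells with a transcript and less of it per cell cannot be told apart. The other laminin chains did not pass the test in any comparison. Calls are edgeR quasi-likelihood tests with Benjamini-Hochberg adjustment over all genes tested in a comparison, at an adjusted p below 0.05.

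For ACTB-mut against Actin KO, 1 of 8 members tested passed, LAMA5, where 0.922% of 13882 genes passed. Of the 8, 2 had an unadjusted p below 0.05, as did 11.5% of all genes tested. For ACTB-mut against ACTB-WT, 2 of 8 passed, LAMA5 and COL18A1, where 1.24% of genes passed. There 3 of the 8 had an unadjusted p below 0.05, as did 12% of all genes tested. For ACTB-WT against Actin KO, 0 of 8 passed, where 1.12% of genes passed, and 1 member, LAMC1, had an unadjusted p below 0.05, as did 11.2% of all genes tested. DESeq2 and limma-voom also called none there. AGRN was too low to be tested in this table.

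In the SETD3 table all 9 members were tested among 13846 genes and edgeR called 0 in every comparison. The share of all genes called was 0.0578% for SETD3_KO2 against SETD3_CT, 0.0144% for SETD3_KO1 against SETD3_CT, 0.0433% for the average of both knockout lines against SETD3_CT and 0.0289% for SETD3_KO2 against SETD3_KO1. The members with an unadjusted p below 0.05 numbered 2, 2, 2 and 1 of 9 in those comparisons, where 4.95%, 5.75%, 5.68% and 4.84% of all genes tested had one. DESeq2 called 1 member, LAMA5, for SETD3_KO2 against SETD3_CT and for SETD3_KO2 against SETD3_KO1 and none in the other 2, and limma-voom called none.

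The median log2 change over the members tested was -0.37 for ACTB-mut against Actin KO, -1.02 for ACTB-mut against ACTB-WT and 0.47 for ACTB-WT against Actin KO, where the medians over all genes were 0.03, 0.02 and -0.01. The comparisons share libraries within a table, so they are not independent of each other.

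**Figure D1:**
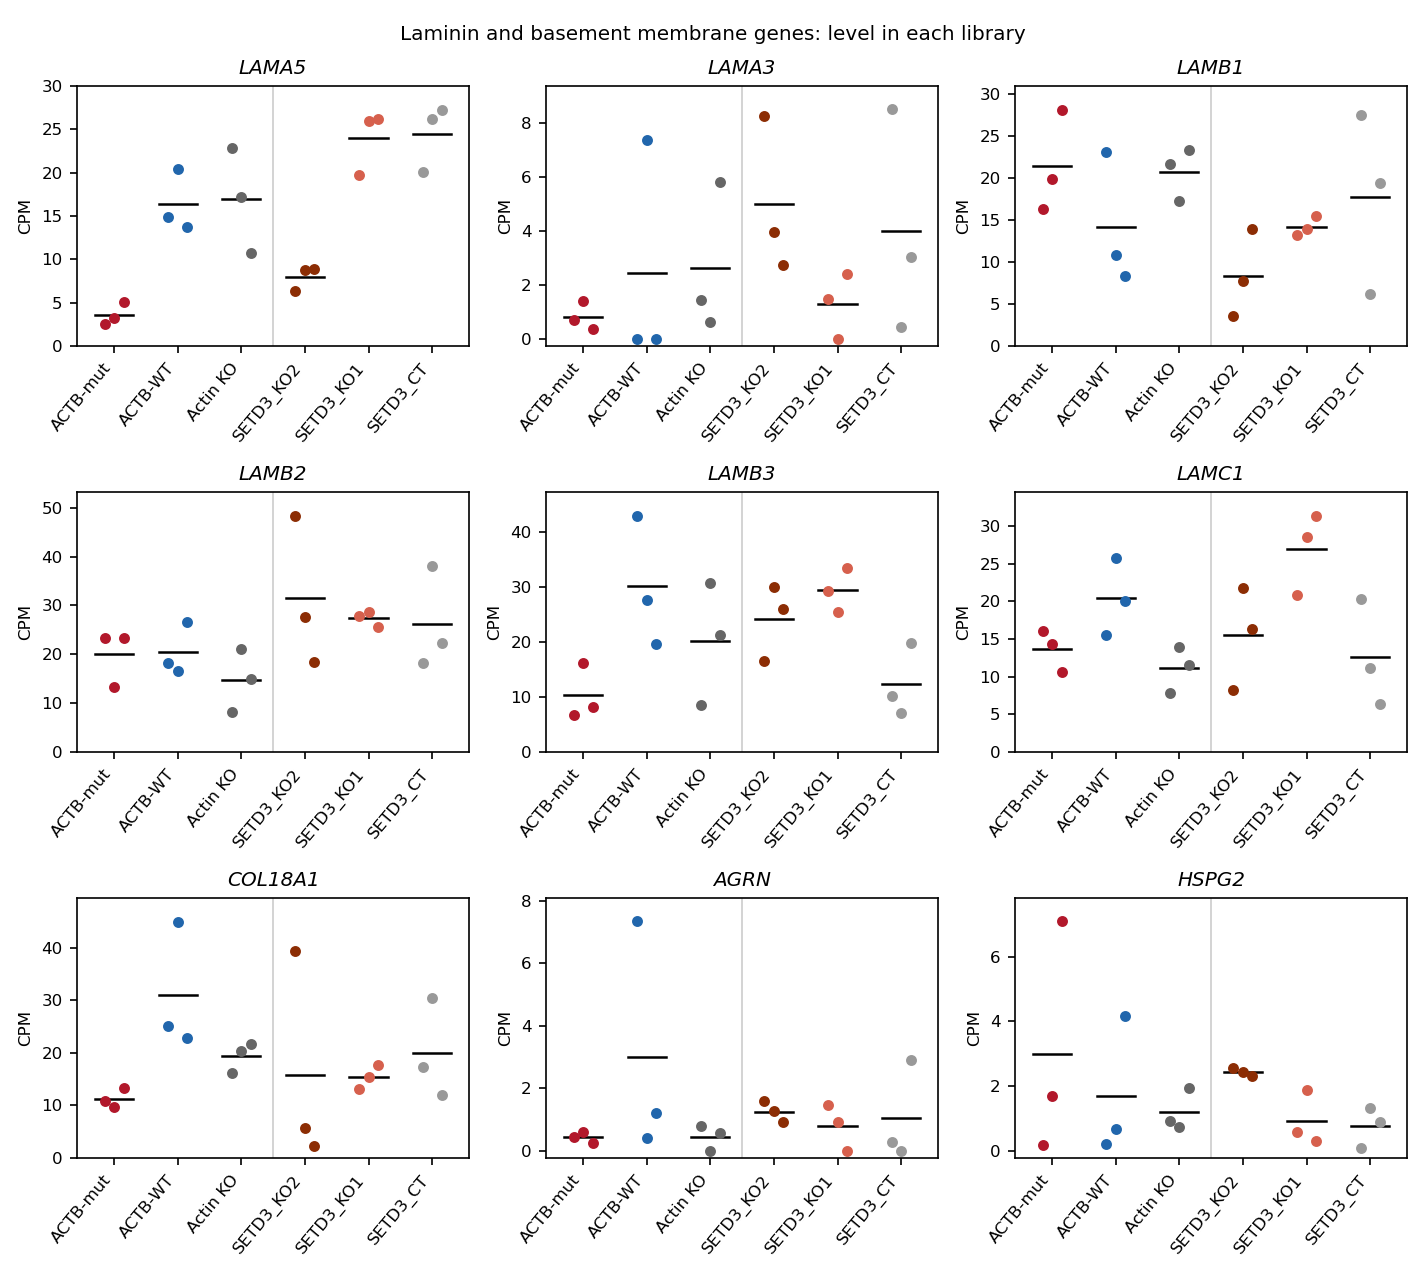
Level of each of the 9 genes in CPM (vertical axis, linear) in every library, by group (horizontal axis). Points are libraries and black bars are means of 3; the grey line separates the actin table from the SETD3 table. LAMA5 is low in all 3 ACTB-mut libraries (2.54 to 5.07 CPM) and in all 3 SETD3_KO2 libraries (6.37 to 8.86 CPM).

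LAMA5 (ENSG00000130702, GRCh38 chromosome 20, 62307955 to 62367312, minus strand) encodes the alpha5 chain. Its level was 2.54, 3.20 and 5.07 CPM in ACTB-mut (29, 32 and 40 counts), 14.9, 20.4 and 13.8 CPM in ACTB-WT and 22.8, 17.2 and 10.7 CPM in Actin KO. All 3 ACTB-mut libraries lay below all 6 others, while ACTB-WT and Actin KO overlapped. The log2 change was -2.23 for ACTB-mut against Actin KO (SE 0.44, 95% interval -3.17 to -1.30, edgeR adjusted p = 0.0222), a level 0.21 times that of Actin KO. It was -2.19 for ACTB-mut against ACTB-WT (SE 0.44, interval -3.13 to -1.25, edgeR adjusted p = 0.0222). For ACTB-WT against Actin KO it was -0.04 (SE 0.42, interval -0.93 to 0.84, edgeR adjusted p = 0.989). The third value leaves room for a change of either sign of somewhat under 1 log2 unit.

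These calls lie near the threshold. The edgeR adjusted p of LAMA5 for ACTB-mut against Actin KO was above 0.05 without ACTB-mut replicate 1 (0.121) or 2 (0.0976) and without Actin KO replicate 1 (0.114) or 2 (0.0744), at log2 changes of -2.04, -2.17, -1.96 and -2.23. For ACTB-mut against ACTB-WT it was above 0.05 without ACTB-mut replicate 1 (0.123) or 2 (0.0873) and without ACTB-WT replicate 1 (0.0558) or 2 (0.1), at -1.99, -2.12, -2.26 and -1.99. LAMA5 was lower in ACTB-mut in all 15 alternative fits of each comparison, and passed in 8 of 15 and 7 of 15.

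Base composition moved with the ACTB-mut comparisons. Across 7106 genes of at least 10 CPM, the log2 change fell with transcript GC content, with r = -0.30 for ACTB-mut against Actin KO and r = -0.24 for ACTB-mut against ACTB-WT, and r = -0.03 for ACTB-WT against Actin KO (genes are not independent replicates). LAMA5 has a transcript of 11426 bases with 66.4% GC and COL18A1 one of 5924 bases with 66.8% GC. The 79 genes of at least 64% GC and 4000 bases had a median log2 change of -0.43 for ACTB-mut against Actin KO and -0.37 for ACTB-mut against ACTB-WT, with 5 and 7 of them called (6.33% and 8.86%). With offsets for GC content and length, LAMA5 changed by -1.80 (edgeR adjusted p = 0.0811) and -1.76 (edgeR adjusted p = 0.0861), so neither call was kept. Mitochondrial transcripts held 1.10%, 0.91% and 1.62% of counts in ACTB-mut, 0.68%, 0.64% and 0.78% in ACTB-WT and 0.77%, 0.87% and 0.74% in Actin KO, and their part in the result was not tested.

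In the SETD3 table LAMA5 had 6.37, 8.76 and 8.86 CPM in SETD3_KO2, 19.7, 26.0 and 26.2 CPM in SETD3_KO1 and 20.1, 26.2 and 27.3 CPM in SETD3_CT. All 3 SETD3_KO2 libraries lay below the 6 others, and SETD3_KO1 and SETD3_CT overlapped. The log2 difference was -1.60 for SETD3_KO2 against SETD3_CT (SE 0.37, interval -2.40 to -0.81), which did not pass (unadjusted p = 8.17e-04, edgeR adjusted p = 0.262), while DESeq2 called it (-1.58, adjusted p = 0.00115). It was -1.57 for SETD3_KO2 against SETD3_KO1 (SE 0.37, edgeR adjusted p = 0.384; DESeq2 adjusted p = 0.00179) and -0.03 for SETD3_KO1 against SETD3_CT (interval -0.80 to 0.74, edgeR adjusted p = 0.998). Over the 15 alternative fits of SETD3_KO2 against SETD3_CT the difference ran from -1.73 to -1.31 with adjusted p from 0.00115 to 0.826. It was -1.47 without the shallow replicate 1 and -1.68 without replicate 3, the library labelled HCT-117. Over 7120 genes of at least 10 CPM, the log2 difference for SETD3_KO2 against SETD3_CT correlated with transcript GC content at r = 0.01. With offsets for GC content and length, LAMA5 differed by -1.31 (edgeR adjusted p = 0.455), the smallest difference of those 15 fits. The part of base composition in the LAMA5 difference was not tested.

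LAMA5 overlaps ADRM1, a proteasome subunit gene, and LAMA5-AS1 on the opposite strand over 362 exonic bases. ADRM1 stood at 583 to 715 CPM in the actin table and 565 to 880 CPM in the SETD3 table, and LAMA5-AS1 was at 0 in every library. The strand setting of the counting is not given in the sources used here, so reads from the shared bases cannot be told apart.

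LAMA3 (ENSG00000053747, chromosome 18, 23689443 to 23956222, plus strand) encodes the alpha3 chain, which joins LAMB3 in the laminin of hemidesmosomes. It had 0.70, 1.40 and 0.38 CPM in ACTB-mut, 0, 7.39 and 0 CPM in ACTB-WT and 1.46, 0.61 and 5.82 CPM in Actin KO. It had 8.28, 3.97 and 2.73 CPM in SETD3_KO2, 1.48, 0 and 2.43 CPM in SETD3_KO1 and 8.54, 0.44 and 3.03 CPM in SETD3_CT. The groups overlapped in every comparison except that SETD3_KO2 lay above SETD3_KO1 in all libraries (1.92, SE 1.34, edgeR adjusted p = 0.999). Where no count was seen, a count of 0 allows up to 0.58 and 0.52 CPM in ACTB-WT replicates 1 and 3 and 0.38 CPM in SETD3_KO1 replicate 2 (3 counts of the library; counting error only). At these levels the log2 difference for ACTB-mut against Actin KO, -1.65, had an interval of -5.05 to 1.76, so a change was not detectable at this depth.

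**Figure D2:**
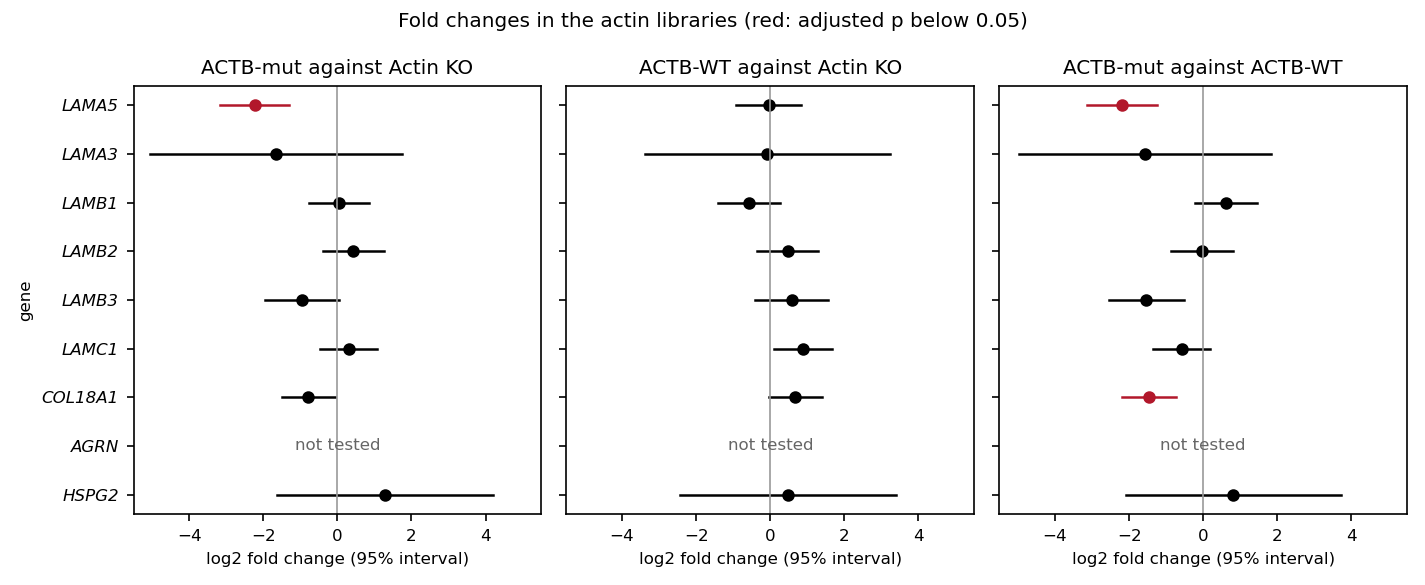
Log2 fold change (horizontal axis) with its 95% interval for each gene (vertical axis) in the 3 comparisons of the actin table, from the edgeR fit; red marks an adjusted p below 0.05. LAMA5 lies at -2.23 and -2.19 in the ACTB-mut comparisons and at -0.04 for ACTB-WT against Actin KO, and COL18A1 at -1.46 for ACTB-mut against ACTB-WT.

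LAMB3 (ENSG00000196878, chromosome 1, 209614870 to 209652466, minus strand) encodes the beta3 chain of the hemidesmosome laminin. It had 6.65, 16.2 and 8.12 CPM in ACTB-mut, 43.0, 27.7 and 19.7 CPM in ACTB-WT and 8.49, 30.7 and 21.2 CPM in Actin KO. ACTB-mut did not overlap ACTB-WT, while Actin KO spanned both. The log2 difference for ACTB-mut against ACTB-WT, -1.54 (SE 0.48, interval -2.55 to -0.53), did not pass in edgeR (adjusted p = 0.158). It passed without a filter on low counts (edgeR adjusted p = 0.00574) and in DESeq2 (adjusted p = 0.047), 2 of 15 alternatives whose values ran from -2.03 to -1.20. Against Actin KO, LAMB3 differed by -0.97 in ACTB-mut (SE 0.47, edgeR adjusted p = 0.452) and by 0.58 in ACTB-WT (SE 0.46, edgeR adjusted p = 0.736).

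Among the SETD3 libraries, LAMB3 had 16.6, 30.0 and 25.9 CPM in SETD3_KO2, 29.3, 25.5 and 33.4 CPM in SETD3_KO1 and 10.2, 7.09 and 19.8 CPM in SETD3_CT. SETD3_KO1 lay above SETD3_CT in every library, and SETD3_KO2 overlapped it through replicate 1. The log2 difference was 0.96 for SETD3_KO2 (SE 0.43, edgeR adjusted p = 0.96), 1.24 for SETD3_KO1 (SE 0.43, edgeR adjusted p = 0.735) and 1.10 for their average (SE 0.38, unadjusted p = 0.0134, edgeR adjusted p = 0.767). None of these passed, nor did they in any of the alternative fits.

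LAMB1 (ENSG00000091136, chromosome 7, 107923799 to 108003255, minus strand) encodes the beta1 chain, the common beta partner of the alpha5 chain. It had 16.3, 19.9 and 28.2 CPM in ACTB-mut, 23.1, 10.9 and 8.37 CPM in ACTB-WT and 21.6, 17.3 and 23.4 CPM in Actin KO. It had 3.50, 7.68 and 13.9 CPM in SETD3_KO2, 13.2, 14.0 and 15.5 CPM in SETD3_KO1 and 27.6, 6.21 and 19.5 CPM in SETD3_CT. The groups overlapped in all comparisons. The log2 difference for ACTB-mut against Actin KO was 0.04 (SE 0.39, interval -0.78 to 0.86), and the lowest edgeR adjusted p of LAMB1 was 0.605, for ACTB-mut against ACTB-WT (0.61, SE 0.39). LAMB1 shares 291 bases with genes on the opposite strand, among them DLD, at 0 to 26.3 CPM.

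LAMB2 (ENSG00000172037, chromosome 3, 49121114 to 49133118, minus strand) encodes the beta2 chain, best known from kidney glomeruli and neuromuscular junctions. It had 23.4, 13.3 and 23.3 CPM in ACTB-mut, 18.3, 16.5 and 26.5 CPM in ACTB-WT and 8.22, 21.1 and 15.0 CPM in Actin KO. It had 48.4, 27.5 and 18.4 CPM in SETD3_KO2, 27.8, 28.6 and 25.6 CPM in SETD3_KO1 and 18.1, 38.1 and 22.4 CPM in SETD3_CT. All groups overlapped their comparison group, and the log2 differences lay between -0.03 for ACTB-mut against ACTB-WT and 0.47 for ACTB-WT against Actin KO, with edgeR adjusted p of 0.754 or more.

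LAMC1 (ENSG00000135862, chromosome 1, 183023460 to 183145592, plus strand) encodes the gamma1 chain found in most laminins. It had 16.0, 14.3 and 10.7 CPM in ACTB-mut, 15.5, 25.8 and 20.0 CPM in ACTB-WT and 7.83, 13.9 and 11.5 CPM in Actin KO. ACTB-WT lay above Actin KO in all libraries, with a log2 difference of 0.89 (SE 0.37, unadjusted p = 0.0292, edgeR adjusted p = 0.359) that did not pass. Its level was 8.28, 21.8 and 16.4 CPM in SETD3_KO2, 20.9, 28.6 and 31.4 CPM in SETD3_KO1 and 20.4, 11.1 and 6.31 CPM in SETD3_CT. SETD3_KO1 lay above SETD3_CT, with its lowest library close to the highest of SETD3_CT, and the log2 difference of 1.09 (SE 0.50, edgeR adjusted p = 0.854) did not pass.

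The chains of a laminin trimer can be set side by side per length. Averaged over the 9 libraries of the actin table, LAMB3 stood at 4.69 CPM per kb, LAMB1 at 3.28, LAMB2 at 3.24, LAMC1 at 1.91, LAMA5 at 1.08 and LAMA3 at 0.19, where the median tested gene stood at 3.67 CPM per kb. In the SETD3 table the order was LAMB3 at 5.10, LAMB2 at 4.99, LAMB1 at 2.35, LAMC1 at 2.32, LAMA5 at 1.65 and LAMA3 at 0.32 CPM per kb. LAMB1 and LAMB2 in the first table, LAMB3 and LAMB2 in the second, and LAMB1 and LAMC1 in the second lay close enough that their order is within the spread between libraries. These orders pool groups and do not hold within each one. By group mean LAMB3 was first in ACTB-WT and Actin KO but below LAMB1 and LAMB2 in ACTB-mut, at 2.40 ± 1.19 CPM per kb, against 3.74 ± 1.07 for LAMB1 and 3.52 ± 1.03 for LAMB2 (SD, n = 3). It was first in both SETD3 knockout lines but below LAMB2 and LAMB1 in SETD3_CT, at 2.87 ± 1.54 CPM per kb, against 4.62 ± 1.86 for LAMB2 and 3.10 ± 1.88 for LAMB1 (SD, n = 3). LAMC1 had a higher mean than LAMB1 in ACTB-WT, SETD3_KO2 and SETD3_KO1, and LAMA5 a higher mean than LAMC1 in Actin KO and SETD3_CT. LAMA3 was the lowest of these 6 chains in each of the 6 groups, with its level set by a transcript of 10661 bases, its longest. A shorter transcript would give LAMA3 a higher level per kb, and none was tried. The alpha chains as a class were lower than the beta chains: all 5 alpha chains summed to 1.33, 1.07 and 1.25 CPM per kb in ACTB-mut, 1.71, 3.13 and 2.55 in ACTB-WT and 4.27, 2.41 and 2.13 in Actin KO, against summed beta chains of 7.29 to 17.7 CPM per kb over the same 9 libraries. ACTB-mut lay below both other groups in the summed alpha chains.

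LAMA5 held 16.7%, 26.2% and 35.4% of the summed alpha chains per kb in ACTB-mut, 76.5%, 57.1% and 47.3% in ACTB-WT and 46.7%, 62.5% and 44.1% in Actin KO. The ACTB-mut shares lay below all of the others. The rest was held in ACTB-mut mainly by LAMA4 and LAMA1, each at no more than 5.25 CPM. LAMA5 held 27.5%, 45.2% and 50.1% in SETD3_KO2, 52.9%, 77.7% and 67.8% in SETD3_KO1 and 46.0%, 73.0% and 88.1% in SETD3_CT, where SETD3_KO2 overlapped SETD3_CT. The ratio of LAMA5 to LAMB1 per kb was 0.08, 0.08 and 0.09 in ACTB-mut, 0.32, 0.94 and 0.83 in ACTB-WT and 0.53, 0.50 and 0.23 in Actin KO. The ratio of LAMA5 to LAMC1 was 0.11, 0.16 and 0.33 in ACTB-mut, 0.66, 0.55 and 0.47 in ACTB-WT and 2.01, 0.86 and 0.64 in Actin KO. Neither ratio in ACTB-mut overlapped the other groups. These ratios describe RNA and rest on the same LAMA5 counts as the fold changes, so they are not further support for them.

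LAMB3 held 17.7%, 38.4% and 17.1% of the summed beta chains per kb in ACTB-mut, 56.5%, 55.6% and 42.5% in ACTB-WT and 27.1%, 49.8% and 42.1% in Actin KO. The share was 29.4%, 51.8% and 50.8% in SETD3_KO2, 48.5%, 44.2% and 47.7% in SETD3_KO1 and 21.1%, 16.9% and 36.4% in SETD3_CT. ACTB-mut lay below ACTB-WT and SETD3_KO1 above SETD3_CT in every library.

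**Figure D3:**
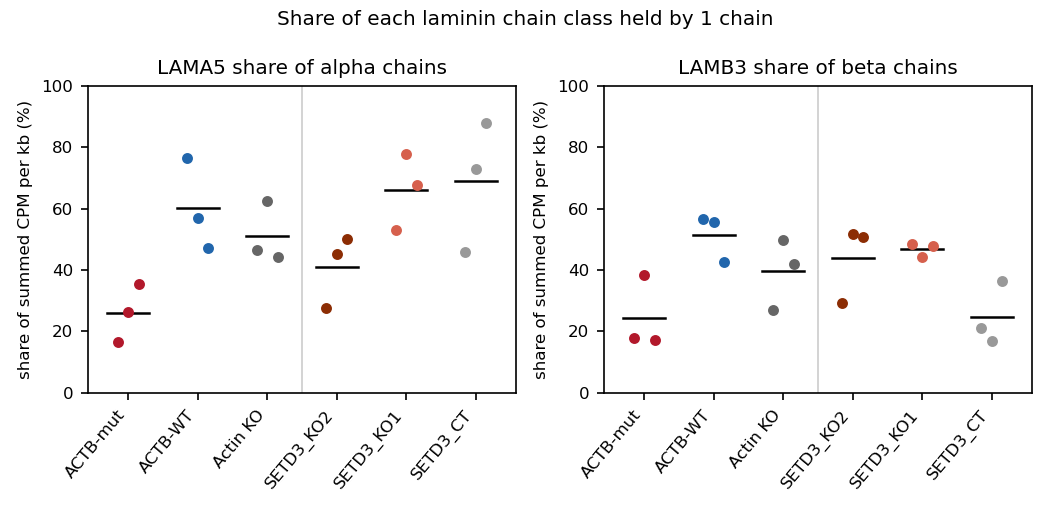
Share of the summed CPM per kb of a laminin chain class (vertical axis, percent) held by LAMA5 among 5 alpha chains and LAMB3 among 4 beta chains, by group (horizontal axis). Points are libraries and bars are means of 3; the LAMA5 share is 16.7% to 35.4% in ACTB-mut and 44.1% to 76.5% in ACTB-WT and Actin KO.

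COL18A1 (ENSG00000182871, chromosome 21, 45405137 to 45513720, plus strand) encodes collagen XVIII, a heparan sulfate proteoglycan of epithelial and vascular basement membranes whose C-terminal fragment is endostatin. It had 10.8, 9.68 and 13.3 CPM in ACTB-mut, 25.1, 45.0 and 22.8 CPM in ACTB-WT and 16.2, 20.3 and 21.7 CPM in Actin KO. The 3 groups did not overlap, with ACTB-mut lowest and ACTB-WT highest. The log2 change was -1.46 for ACTB-mut against ACTB-WT (SE 0.34, interval -2.19 to -0.74, edgeR adjusted p = 0.0484). Neither group passed against Actin KO, at -0.79 in ACTB-mut (SE 0.34, unadjusted p = 0.0331, edgeR adjusted p = 0.373) and 0.68 in ACTB-WT (SE 0.33, unadjusted p = 0.0587, edgeR adjusted p = 0.467).

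The call of COL18A1 lies at the threshold. It passed in 5 of 15 alternatives, at log2 changes from -1.65 to -1.08 over all 15, and not when scaled by library totals alone (edgeR adjusted p = 0.0518) or with offsets for GC content and length (-1.08, edgeR adjusted p = 0.176). It did not pass without ACTB-mut replicate 1 (0.177), 2 (0.164) or 3 (0.094) or without ACTB-WT replicate 1 (0.0773) or 2 (0.244), and it did without ACTB-WT replicate 3 (0.0456).

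COL18A1 in the SETD3 libraries had 39.5, 5.60 and 2.32 CPM in SETD3_KO2, 13.2, 15.4 and 17.6 CPM in SETD3_KO1 and 17.3, 30.4 and 12.0 CPM in SETD3_CT. Within SETD3_KO2 the shallowest library was the highest of all 9 and the other two were the lowest. The log2 difference for SETD3_KO2 against SETD3_CT was -0.37 (SE 0.79, edgeR adjusted p = 1) with all libraries and -2.31 without replicate 1 (edgeR adjusted p = 0.409), and 0.16 without replicate 3. Its coefficient of variation between replicates, as edgeR estimated it, was 66.0% in this table and 29.8% in the actin table. COL18A1 shares 1401 exonic bases with SLC19A1, the reduced folate carrier on the opposite strand, at 81.4 to 218 CPM, and reads from those bases cannot be told apart.

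HSPG2 (ENSG00000142798, chromosome 1, 21822245 to 21937297, minus strand) encodes perlecan. It had 0.17, 1.70 and 7.10 CPM in ACTB-mut, 0.20, 0.67 and 4.18 CPM in ACTB-WT and 0.93, 0.74 and 1.94 CPM in Actin KO. It had 2.55, 2.44 and 2.32 CPM in SETD3_KO2, 0.59, 1.88 and 0.30 CPM in SETD3_KO1 and 0.10, 1.33 and 0.88 CPM in SETD3_CT. SETD3_KO2 lay above both other groups, at a log2 difference of 1.67 from SETD3_CT (SE 1.37, edgeR adjusted p = 1) and 1.37 from SETD3_KO1 (SE 1.34, edgeR adjusted p = 0.999), neither of which passed. The counts were 8, 27 and 28 in SETD3_KO2 and 1, 6 and 7 in SETD3_CT. HSPG2 shares 2121 bases with LDLRAD2 on the opposite strand, at 3.81 to 16.2 CPM.

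AGRN (ENSG00000188157, chromosome 1, 1020123 to 1056118, plus strand) encodes agrin, which clusters acetylcholine receptors at the neuromuscular junction and binds laminin and dystroglycan elsewhere. It had 0.44, 0.60 and 0.25 CPM in ACTB-mut, 7.36, 0.40 and 1.22 CPM in ACTB-WT and 0.80, 0 and 0.57 CPM in Actin KO. It had 1.59, 1.26 and 0.91 CPM in SETD3_KO2, 1.48, 0.94 and 0 CPM in SETD3_KO1 and 0.29, 0 and 2.91 CPM in SETD3_CT. A single ACTB-WT library, with 37 counts, stood apart from the rest. The edgeR adjusted p was 0.998 or more in each SETD3 comparison, and the interval for SETD3_KO2 against SETD3_CT ran from -3.44 to 3.84. In CPM per kb, AGRN and HSPG2 exceeded 1.43% and 0.735% of the 13745 tested genes of known transcript length in the actin table. AGRN itself is not among those genes, and genes too low to be tested are left out.

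**Figure D4:**
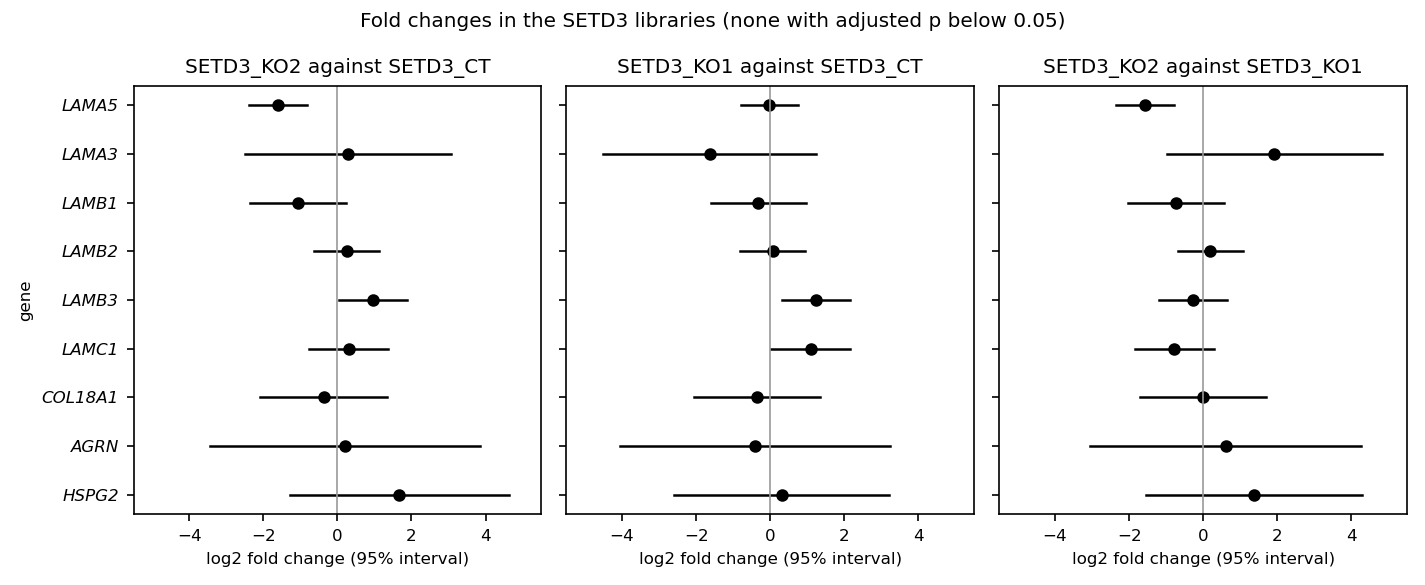
Log2 fold change (horizontal axis) with its 95% interval for each gene (vertical axis) in 3 comparisons of the SETD3 table, from the edgeR fit; none had an adjusted p below 0.05. LAMA5 lies at -1.60 and -1.57 in the SETD3_KO2 comparisons and at -0.03 for SETD3_KO1 against SETD3_CT.

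Among the other laminin chains, LAMA1, LAMA2, LAMA4, LAMB4 and LAMC3 were looked at, and 0 of 5 tested passed in each comparison of the actin table and 0 of 4 in each of the SETD3 table, where LAMA1 was too low to be tested. None had an unadjusted p below 0.05 in edgeR. LAMC3 averaged 6.44 CPM in ACTB-mut, 4.52 CPM in ACTB-WT and 4.35 CPM in Actin KO, and the spread within a group exceeded these differences (SD 5.60, 2.41 and 3.06 CPM).

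Of 29 other basement membrane components, among them the nidogens and the collagen IV chains, only 6 were high enough to be tested in either table. SPARC, a collagen-binding matricellular protein, rose to 655 CPM in ACTB-mut, against 202 CPM in Actin KO (1.70, SE 0.20, edgeR adjusted p = 9.10e-04). It fell to 31.3 CPM in ACTB-WT (-2.69 against Actin KO, SE 0.21, edgeR adjusted p = 3.59e-06), and ACTB-mut exceeded ACTB-WT by 4.39 (SE 0.22, edgeR adjusted p = 1.99e-08). TINAGL1, a laminin-binding matrix protein, rose in ACTB-mut, at 45.1 CPM, against 13.3 CPM in ACTB-WT (1.77, SE 0.30, edgeR adjusted p = 0.00811). Of the 6 tested, 1 rose for ACTB-mut against Actin KO, 2 rose for ACTB-mut against ACTB-WT and 1 fell for ACTB-WT against Actin KO. Among all genes, 0.922%, 1.24% and 1.12% passed in these comparisons, in that order. For ACTB-mut against ACTB-WT, SPARC and TINAGL1 thus had positive log2 changes, where those of LAMA5 and COL18A1 were negative. Of the 6 tested in the SETD3 libraries, 0 passed in edgeR. For SETD3_KO2 against SETD3_CT 1 had an unadjusted p below 0.05, as did 4.95% of all genes. For SETD3_KO1 against SETD3_CT 1 had one, as did 5.75% of all genes. SPARC stood at 3.24 CPM in SETD3_KO2 and 21.6 CPM in SETD3_CT (-2.74, SE 0.73, edgeR adjusted p = 0.441).

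Of 23 receptors for laminin and basement membranes, 20 were tested in the actin table. ITGA3, the integrin alpha chain that binds the alpha5 and alpha3 laminins, fell in ACTB-mut, at 156 CPM, against 308 CPM in Actin KO (-0.98, SE 0.15, edgeR adjusted p = 0.00529). ITGB4, the beta chain of the hemidesmosome integrin, also fell, at 114 CPM in ACTB-mut, against 223 CPM in Actin KO (-0.97, SE 0.17, edgeR adjusted p = 0.0121). ITGA6, its alpha partner, had no count in the 3 ACTB-WT libraries and averaged 6.45 CPM in ACTB-mut and 6.24 CPM in Actin KO, and ACTB-WT passed against both (edgeR adjusted p = 0.0219 with ACTB-mut on top, and 0.0231 against Actin KO). Thus 2 of the 20 receptors fell and 0 rose for ACTB-mut against Actin KO, where 0.922% of all genes passed. For ACTB-mut against ACTB-WT 1 rose, where 1.24% of all genes passed, and for ACTB-WT against Actin KO 1 fell, where 1.12% passed. The list's median log2 change was -0.11, 0.07 and -0.10 in these 3 comparisons, near the median of all genes. ITGB1 averaged 48.8 CPM in both ACTB-mut and ACTB-WT, and DAG1, dystroglycan, 199 CPM in ACTB-mut and 233 CPM in ACTB-WT (-0.23, SE 0.14, edgeR adjusted p = 0.585). Among the SETD3 libraries, 0 of 18 tested receptors passed in each comparison. For SETD3_KO1 against SETD3_CT 4 of them had an unadjusted p below 0.05, as did 5.75% of all genes. For SETD3_KO2 against SETD3_CT 1 had one, as did 4.95% of all genes.

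Among 16 tested genes of collagen folding and crosslinking, 1 passed for ACTB-mut against Actin KO, where 0.922% of all genes passed. In the other comparisons 0 of 16 passed. The gene that passed was PLOD3, a lysyl hydroxylase and glycosyltransferase of collagens. It fell to 56.6 CPM in ACTB-mut, against 134 CPM in Actin KO (-1.24, SE 0.20, edgeR adjusted p = 0.00797). Among 18 tested matrix proteases and inhibitors in the actin table, TIMP1, a metalloproteinase inhibitor, fell to 456 CPM in ACTB-mut, against 650 CPM in Actin KO (-0.51, SE 0.12, edgeR adjusted p = 0.0486), and no other passed in any comparison of that table. That was 1 of 18 in a comparison where 0.922% of all genes passed. Of the 17 tested genes of heparan sulfate synthesis, which makes the side chains of COL18A1, AGRN and HSPG2, 1 passed. HS3ST1, a heparan sulfate 3-O-sulfotransferase, fell to 24.8 CPM in ACTB-WT, against 114 CPM in Actin KO (-2.21, SE 0.27, edgeR adjusted p = 4.87e-04). It also fell to 52.4 CPM in SETD3_KO2, against 170 CPM in SETD3_CT (-1.70, SE 0.24, edgeR adjusted p = 0.019), and for the average of both knockout lines (-1.32, SE 0.19, edgeR adjusted p = 0.0292). Of all genes, 1.12%, 0.0578% and 0.0433% passed in those comparisons, in that order. In the other comparisons 0 of 17 passed.

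The genes whose log2(CPM + 1) followed LAMA5 most closely over the 9 actin libraries, among 7118 genes of at least 10 CPM, were NIPSNAP1 (Pearson's r = 0.959), FAM83H (r = 0.954) and ICA1 (r = 0.946). ICA1 averaged 3.31 CPM in ACTB-mut, 11.1 CPM in ACTB-WT and 16.5 CPM in Actin KO. For COL18A1 they were GPSM1 (r = 0.937), TMEM132A (r = 0.927) and OTUB1 (r = 0.913), and GPSM1 averaged 10.5 CPM in ACTB-mut, 23.2 CPM in ACTB-WT and 18.6 CPM in Actin KO. LAMA5 and COL18A1 correlated with each other at r = 0.79, and LAMA5 with LAMB1, LAMB2 and LAMC1 at r = -0.26, -0.30 and 0.05. These values describe 9 libraries of 3 groups, and those of the named like genes are the highest of many. The part of library depth and base composition in them was not tested.

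**Figure D5:**
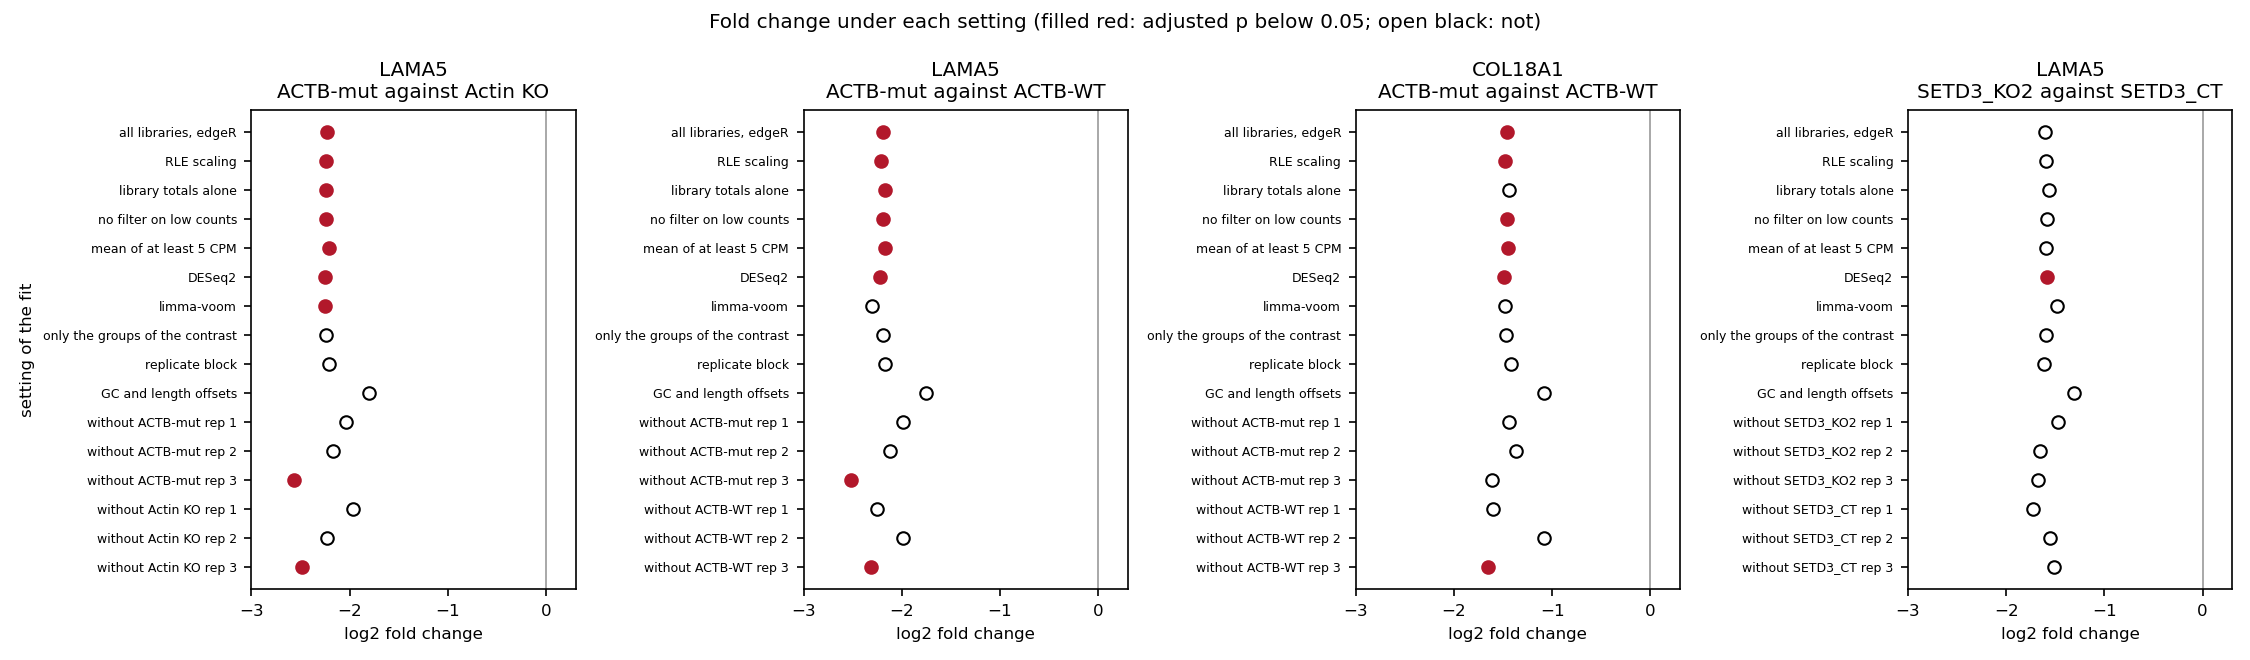
Log2 fold change (horizontal axis) of LAMA5 and COL18A1 in 4 comparisons under each setting of the fit (vertical axis): the edgeR fit of all libraries, another scaling, filter or tool, and the fits that leave out 1 library. Filled red points have an adjusted p below 0.05 and open black points do not; LAMA5 stays between -2.56 and -1.76 in both ACTB-mut comparisons on either side of that threshold.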

How the data were processed

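Poly(A)-enriched RNA of 18 HCT-116 libraries was quantified per gene by the authors, who deposited RSEM expected counts without normalisation in 2 tables of 9 libraries. Per the submitters' processing notes, the tools were Trim Galore 0.4.5, cutadapt 1.15, RSEM 1.2.28 and Bowtie2, on GRCh38. The annotation release and strand setting are not given in the sources used here. Expected counts share reads between overlapping or similar transcripts, and 83.6% of values were whole within 0.005.

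Counts were rounded to whole numbers. Each table was fitted with its 3 groups in edgeR 4.0.16 (R 4.3.3): filterByExpr, TMM scaling, robust quasi-likelihood F tests, Benjamini-Hochberg adjustment over all genes, and a call at an adjusted p below 0.05. The standard error is the absolute log2 change divided by the square root of F. The script was tested on simulated data. Levels were set per length with the longest principal transcript of each gene in GENCODE 29. Alternatives were RLE scaling, library totals alone, other filters, DESeq2 1.42.0, limma-voom (limma 3.58.1), only the groups compared, a replicate block, offsets for GC content and length, and leaving out each library. The 9 genes, the lists of related genes and the naming rule (all 9 genes, called genes of each list, and the 3 genes most like each called member) were chosen with earlier results of these data known. 1 gene of the lists is not reported here.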

Additional observations from a re-analysis of the deposited data

Results flagged for a closer look

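2 results differed between groups under the same contrast, each group set against Actin KO. LAMA5 changed by -2.23 in ACTB-mut and by -0.04 in ACTB-WT, and the difference of these effects, tested directly as ACTB-mut against ACTB-WT, was -2.19 (edgeR quasi-likelihood test, adjusted p = 0.0222), lower in 3 of 3 ACTB-mut libraries. COL18A1 differed by -0.79 in ACTB-mut and by 0.68 in ACTB-WT, neither past the threshold, and the difference of these effects was -1.46 (edgeR adjusted p = 0.0484), again lower in 3 of 3 libraries. Both differences became smaller with offsets for GC content and length, at -1.76 and -1.08. They passed in 7 of 15 alternatives for LAMA5 and 5 of 15 for COL18A1. Both genes were flagged because they passed this test, so the order of their libraries is not further support.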

How the results depend on the processing

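Of 895 alternative values of the 60 member fold changes, 805 kept their sign and their side of the threshold, 25 lost a call, 4 gained one and 61 changed sign, the last over 25 results and 0 of them called. For ACTB-mut against Actin KO 0 members passed, in place of 1, with only the groups compared, with the replicate block (LAMA5 -2.21, adjusted p = 0.0742) and with offsets for GC content and length, and 0 to 1 when 1 library was left out. For ACTB-mut against ACTB-WT, in place of 2, 1 passed with library totals alone, 0 in limma-voom, 0 with only the groups compared, 0 with the replicate block (LAMA5 -2.17, adjusted p = 0.069; COL18A1 -1.42, adjusted p = 0.11) and 0 with GC and length offsets, and 0 to 2 when 1 library was left out. DESeq2 called 1 member, LAMA5, for SETD3_KO2 against SETD3_CT and for SETD3_KO2 against SETD3_KO1, in place of 0. The cause of these changes was not tested. Same-numbered libraries of different groups deviated together at r = -0.40 to 0.20 over 18 pairs. Each ACTB-mut library was most like the Actin KO library of its own number, at r = 0.063, 0.038 and 0.095. That held for no other pair of groups. The values are too low to show a pairing by number and cannot exclude one. Setting the transcript length by the longest transcript moved none of the LAMA5 and LAMB3 shares and ratios beyond its spread. That check could move little. LAMA3, LAMA5, LAMB2, LAMB3 and LAMC1 have the same length either way, and LAMB1 has 5725 or 5766 bases.

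The number of all genes called, by setting, ran from 34 to 447 for ACTB-mut against Actin KO (128 as reported), 79 to 433 for ACTB-WT against Actin KO (155), 60 to 524 for ACTB-mut against ACTB-WT (172), 1 to 110 for SETD3_KO2 against SETD3_CT (8), 0 to 91 for SETD3_KO1 against SETD3_CT (2), 0 to 116 for both lines (6) and 3 to 74 for SETD3_KO2 against SETD3_KO1 (4), in each case highest in DESeq2. With the replicate block these counts were 85, 89, 83, 1, 0, 0 and 3.

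Sign changes outside the fits without 1 library were as follows, on the log2 scale. In limma-voom LAMA5 (0.057) and HSPG2 (-0.25) changed sign for ACTB-WT against Actin KO, LAMB1 (-0.026) and HSPG2 (-0.023) for ACTB-mut against Actin KO, LAMA3 (0.72) for ACTB-mut against ACTB-WT, LAMA5 (0.0085) for SETD3_KO1 against SETD3_CT, AGRN (0.56) for both lines and LAMB2 (-0.12) for SETD3_KO2 against SETD3_KO1. With the replicate block HSPG2 (-0.49) did so for ACTB-WT against Actin KO, and AGRN for SETD3_KO1 (0.13) and for both lines (0.39) against SETD3_CT. With GC and length offsets LAMB2 (0.25) did so for ACTB-mut against ACTB-WT and LAMA5 (0.10) for SETD3_KO1 against SETD3_CT, and with library totals alone LAMA5 (0.042) for SETD3_KO1 against SETD3_CT. COL18A1 did so for SETD3_KO2 against SETD3_KO1 with RLE scaling (0.0081) and DESeq2 (0.031).

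Leaving out 1 library gave ranges that crossed 0 in 25 results. For ACTB-mut against Actin KO these were HSPG2 (-0.37 to 1.85) and LAMB1 (-0.21 to 0.21). For ACTB-WT against Actin KO they were HSPG2 (-1.40 to 0.99), LAMA3 (-7.42 to 1.25) and LAMA5 (-0.29 to 0.23). For ACTB-mut against ACTB-WT they were HSPG2 (-0.85 to 2.69), LAMA3 (-2.17 to 5.77) and LAMB2 (-0.16 to 0.19). For SETD3_KO2 against SETD3_CT they were AGRN (-0.35 to 2.81), COL18A1 (-2.31 to 0.16), LAMA3 (-0.27 to 1.47), LAMB2 (-0.18 to 0.62) and LAMC1 (-0.014 to 0.86). For SETD3_KO1 against SETD3_CT they were AGRN (-1.15 to 2.20), COL18A1 (-0.62 to 0.072), HSPG2 (-0.71 to 0.92), LAMA5 (-0.15 to 0.10), LAMB1 (-0.72 to 0.14) and LAMB2 (-0.14 to 0.43). For both lines they were AGRN (-0.66 to 2.51), COL18A1 (-1.34 to 0.065), LAMA3 (-1.19 to 0.51) and LAMB2 (-0.053 to 0.53), and for SETD3_KO2 against SETD3_KO1 COL18A1 (-1.96 to 0.52) and LAMB2 (-0.25 to 0.46). With 3 libraries a group and members at 0 to 48.4 CPM, depth limits what can be seen, most of all for LAMA3, AGRN and HSPG2.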
